A study of Homo sapiens with 3 samples.

Results

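The 9 genes described here are the oncogene MYC and 8 genes whose proteins work in the nucleolus, namely NCL, NPM1, FBL, DKC1, POLR1A, POLR1B, UBTF and RRN3. They were found by the gene name that the array design gives to each non-control probe, and every probe of each gene was kept. The 9 genes are 9 of the 27274 gene names on the array, and they are measured by 15 probes of 60 bases, which fill 24 of the 43118 non-control spots of an array. HepG2 cells, a human hepatocellular carcinoma line grown with fetal bovine serum, were left as a control (0 μM, labeled untreated, though the study also names DMSO) or exposed for 30 h to etoposide at 10 μM, the low dose, or at 100 μM, the high dose. Etoposide traps DNA topoisomerase II on cut DNA and so causes double-strand breaks. The study used the low dose to bring about senescence and the high dose to bring about apoptosis, and compared the transcriptomes of the cells. Each condition has 1 array, hybridized with Cy3-labeled RNA in 1 color, and all 3 arrays lay on 1 slide. No fold change therefore has a replicate check, no test between conditions was possible, and an effect of dose cannot be told apart from a difference between cultures or RNA preparations.

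MYC is a transcription factor that pairs with MAX, binds E-box sequences and raises the output of genes for growth, among which those for ribosome production are prominent. Ribosomes are begun in the nucleolus, where RNA polymerase I transcribes the ribosomal DNA and where small nucleolar RNPs and many processing factors fold, modify and cut the precursor RNA. The nucleolus is also a sensor of DNA damage, since its proteins can leave it when transcription by RNA polymerase I is blocked.

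At the high dose of etoposide, the signals of all 9 genes were lower than in control cells by their brightest probes, with a median log2 ratio of -0.83. Of all 16779 genes measured in that comparison 42.4% were lower, and their median was 0.10. Without scaling of the arrays, which is described below, all 9 were still lower, and so were 10502 of 16940 genes. MYC was 3.46-fold lower, and DKC1 and NPM1 were 2.19-fold and 2.10-fold lower. At the low dose the signals of 7 of the 9 genes were lower, with a median log2 ratio of -0.25, and MYC was 2.13-fold lower. Of all 16664 genes 54.6% were lower there, with a median of -0.04. By the mean or the median over its probes, RRN3 was at -0.01 or 0.03 in place of -0.13 at the low dose. At the high dose it was above control by these rules, at 0.24 or 0.37 in place of -0.10. UBTF and RRN3, which encode initiation factors of RNA polymerase I, and POLR1A, which encodes its largest subunit, were within 1.5-fold of control at both doses, except that UBTF passed 1.5-fold at 100 μM without scaling and with median scaling (log2 ratios of -0.62 and -0.66). These are measurements of bulk RNA, in which fewer cells with a transcript and less transcript per cell cannot be told apart.

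Signals are given below as scaled intensities. The deposited intensity of a spot, already corrected for background by the scanner software, was multiplied so that the 75th percentile over the probes of each array equaled that of the control array. The percentile was 514 for the control, 536 for 10 μM and 432 for 100 μM, so the high-dose signals were multiplied by 1.19 and the low-dose signals by 0.958. A log2 ratio or fold change compares the scaled intensities of 1 probe between 2 arrays. The error given with a log2 ratio is the spot-to-spot SD, taken from repeated probes of similar signal on the same arrays. It covers spots of 1 array only. Between 19836 and 20153 of the 34127 probes were well above background per array, by the software's own call, and none of the 24 spots of the 9 genes was saturated or marked as an outlier. The signals of the 8 hepatocyte and HepG2 markers examined, among them AFP and ALB, were well above background on all 3 arrays. No fibroblast marker was (0 of 3, at 4.18 to 7.97), whereas the leukocyte markers PTPRC and CD3E (33.2 to 343) and both endothelial markers (47.9 to 473) were, and their part in the results was not tested.

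MYC (NM_002467) was the gene of this set with the lowest ratios. Its 1 probe is spotted 10 times on each array and lies on chromosome 8 of hg18 from 128822450 to 128822509 (plus strand), and the files do not say in which part of the transcript that is. In control cells the 10 spots ranged from 12210 to 12751 with a median of 12505. At 10 μM they ranged from 5699 to 6326 with a median of 5840. At 100 μM they ranged from 3532 to 3868 with a median of 3616. The spots of the 3 arrays did not overlap, and they stepped down from control to the low dose and again to the high dose.

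The mean MYC signal at the low dose was 47.0% of that in control cells, a log2 ratio of -1.09 ± 0.065 (spot-to-spot SD). At the high dose it was 28.9% of control, a log2 ratio of -1.79 ± 0.065. Between the doses, the 10 μM signal was the higher by 1.62-fold. Of all genes measured in each comparison with control, 1.25% had a lower ratio with 10 μM and 1.33% with 100 μM. On the log2 scale and under this scaling, 60.9% of the change seen at the high dose was already present at the low dose. That share depends on the scaling, and without scaling the log2 ratios were -1.03 and -2.04.

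**Figure D1:**
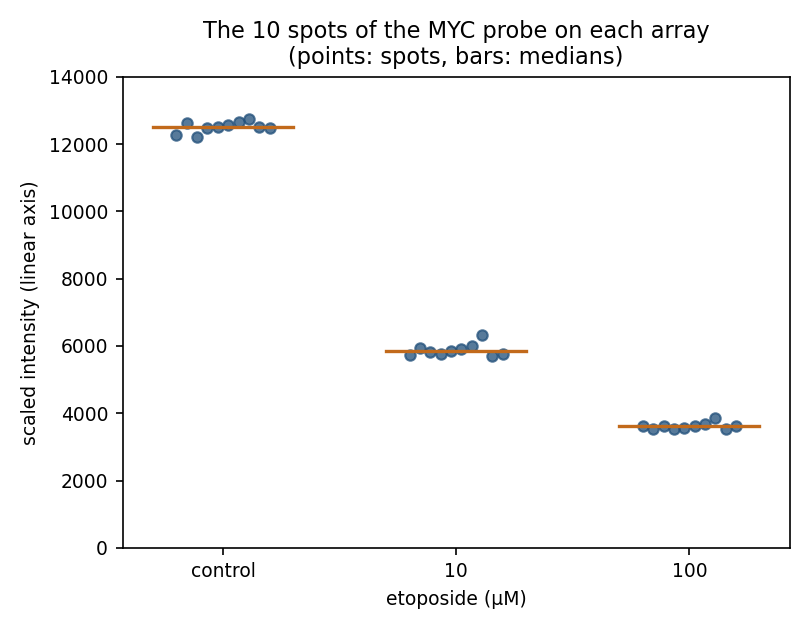
Scaled intensity (vertical axis, linear) of each of the 10 spots of the MYC probe on the array of control cells and of cells treated with 10 or 100 μM etoposide (horizontal axis). Points are spots and bars are medians of 12505, 5840 and 3616, and no spot of 1 array reaches the range of another. The spread shown is within an array and not between cultures.

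NCL and NPM1 encode nucleolin and nucleophosmin, abundant nucleolar proteins that bind RNA and chaperone ribosome assembly. For NCL (NM_005381, chromosome 2 of hg18, 232027965 to 232028024, minus strand) the signal was 32645 in control cells, 27529 at 10 μM and 19916 at 100 μM. It stepped down at each dose. The log2 ratio over control was -0.25 ± 0.059 with 10 μM and -0.71 ± 0.061 with 100 μM, the latter a 1.64-fold lower signal. Under this scaling 34.5% of the high-dose log2 change of NCL was present at the low dose, compared with 60.9% for MYC. Without scaling the log2 ratios of NCL were -0.18 and -0.96.

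NPM1 (NM_002520) is read by 3 probes, and all 3 gave the same order of the arrays. The one with the most signal, on chromosome 5 of hg18 from 170770394 to 170770453 (plus strand), had a signal of 141920 in control cells, 95401 at 10 μM and 67458 at 100 μM. Its log2 ratio over control was -0.57 ± 0.059 at 10 μM and -1.07 ± 0.059 at 100 μM. A second probe reached from 170764986 to 170767341 on the same chromosome, so its 60 bases are spread over 2356 bases of genome and cross an intron. Its signals were 32226, 19585 and 14124, with log2 ratios of -0.72 and -1.19. The last probe, from 170764929 to 170764987, had signals of 19977, 12173 and 8440 and log2 ratios of -0.71 and -1.24. By the brightest probe NPM1 was 1.49-fold lower at the low dose, whereas both other probes put it at 1.64-fold lower. Processed copies of NPM1 occur in the genome, and how far they add to these signals was not tested. The probe that crosses an intron is shown because it reads spliced transcript, 5′ to 3′ as in the file and with no part in capitals.
NPM1 probe across an intron: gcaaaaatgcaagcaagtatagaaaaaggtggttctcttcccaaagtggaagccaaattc

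FBL and DKC1 encode the catalytic subunits of the 2 classes of small nucleolar RNP. Fibrillarin methylates ribosomal RNA in box C/D particles, and dyskerin converts uridine to pseudouridine in H/ACA particles and also stabilizes the telomerase RNA. The 2 genes differed from each other mainly at the low dose. FBL (NM_001436, chromosome 19 of hg18, 45016973 to 45017032, minus strand) had signals of 44661 in control cells, 46463 at 10 μM and 23097 at 100 μM. Its log2 ratio at the low dose was 0.06 ± 0.059, which is within the spot-to-spot SD, and at the high dose it was -0.95 ± 0.060, a 1.93-fold lower signal. DKC1 (NM_001363, chromosome X of hg18, 153658781 to 153658840, plus strand) had signals of 4249, 2965 and 1938. Its log2 ratios were -0.52 ± 0.062 and -1.13 ± 0.064, so 45.8% of the high-dose change was present at the low dose under this scaling. Accordingly FBL differed most between the doses among the 9 genes under this scaling, with 2.01-fold more signal at 10 μM than at 100 μM, and DKC1 had 1.53-fold more.

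POLR1A and POLR1B encode the largest and the second largest subunit of RNA polymerase I, which together form its active site, and their signals did not run alike. POLR1A (NM_015425, chromosome 2 of hg18, 86107058 to 86107117, minus strand) had signals of 791 in control cells, 855 at 10 μM and 734 at 100 μM. The log2 ratio over control was 0.11 ± 0.067 with 10 μM and -0.11 ± 0.073 with 100 μM. A second probe of POLR1A, from 86158689 to 86158748 and annotated to CR594845, was not well above background on any array and has no fold change. POLR1B (NM_019014, chromosome 2 of hg18, 113049897 to 113049956, plus strand) had signals of 1092, 917 and 616, a step down at each dose. Its log2 ratios over control were -0.25 ± 0.067 and -0.83 ± 0.071, the latter 1.77-fold lower. The dimmer probe of POLR1B, from 113051151 to 113051210 and annotated to AK001678, had signals of 103, 79.8 and 44.4. Its log2 ratios were -0.37 ± 0.13 and -1.21 ± 0.21, in the same direction as the bright probe and larger in size.

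UBTF encodes the upstream binding factor that coats active ribosomal DNA, and RRN3 encodes the factor that makes the polymerase competent to start. UBTF (NM_001076683, chromosome 17 of hg18, 39638234 to 39638293, minus strand) had signals of 117 in control cells, 102 at 10 μM and 90.6 at 100 μM. The log2 ratios over control were -0.19 ± 0.12 and -0.37 ± 0.14, and the latter was -0.07 with normexp background correction, -0.54 with spike-in scaling, -0.55 with quantile normalization, -0.62 without scaling and -0.66 with median scaling. For RRN3 (NM_018427), the probe with the most signal, on chromosome 16 of hg18 from 15061941 to 15062000 (minus strand), had signals of 308, 282 and 287. Its log2 ratios were -0.13 ± 0.085 and -0.10 ± 0.087, and the difference between the doses was -0.03. Thus neither gene approached the ratios of MYC, NPM1 or DKC1.

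The other 2 probes of RRN3 did not follow the brightest. The array design lists them also for copies of the gene, RRN3P1, RRN3P2 and, for the first of them, RRN3P3, so their signals cannot be assigned to RRN3 alone. The first, whose 60 bases span 926 bases of chromosome 16 from 15071593 to 15072518, had signals of 27.7 in control cells, 28.4 at 10 μM and 35.9 at 100 μM. The other, from 15093869 to 15093927, had signals of 78.1, 81.2 and 107. Both were highest at the high dose, with log2 ratios over control of 0.37 ± 0.34 and 0.46 ± 0.14. By the median over the 3 probes, RRN3 had a log2 ratio of 0.37 at the high dose in place of -0.10. The sequences of both probes are shown, as printed in the files from 5′ to 3′ and with no part in capitals, because their signals were highest where that of the brightest probe was not.
RRN3 probe spanning 926 bases: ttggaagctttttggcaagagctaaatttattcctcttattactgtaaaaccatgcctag
RRN3 probe also listed for RRN3P1 and RRN3P2: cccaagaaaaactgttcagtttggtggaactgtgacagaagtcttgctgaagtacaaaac

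**Figure D2:**
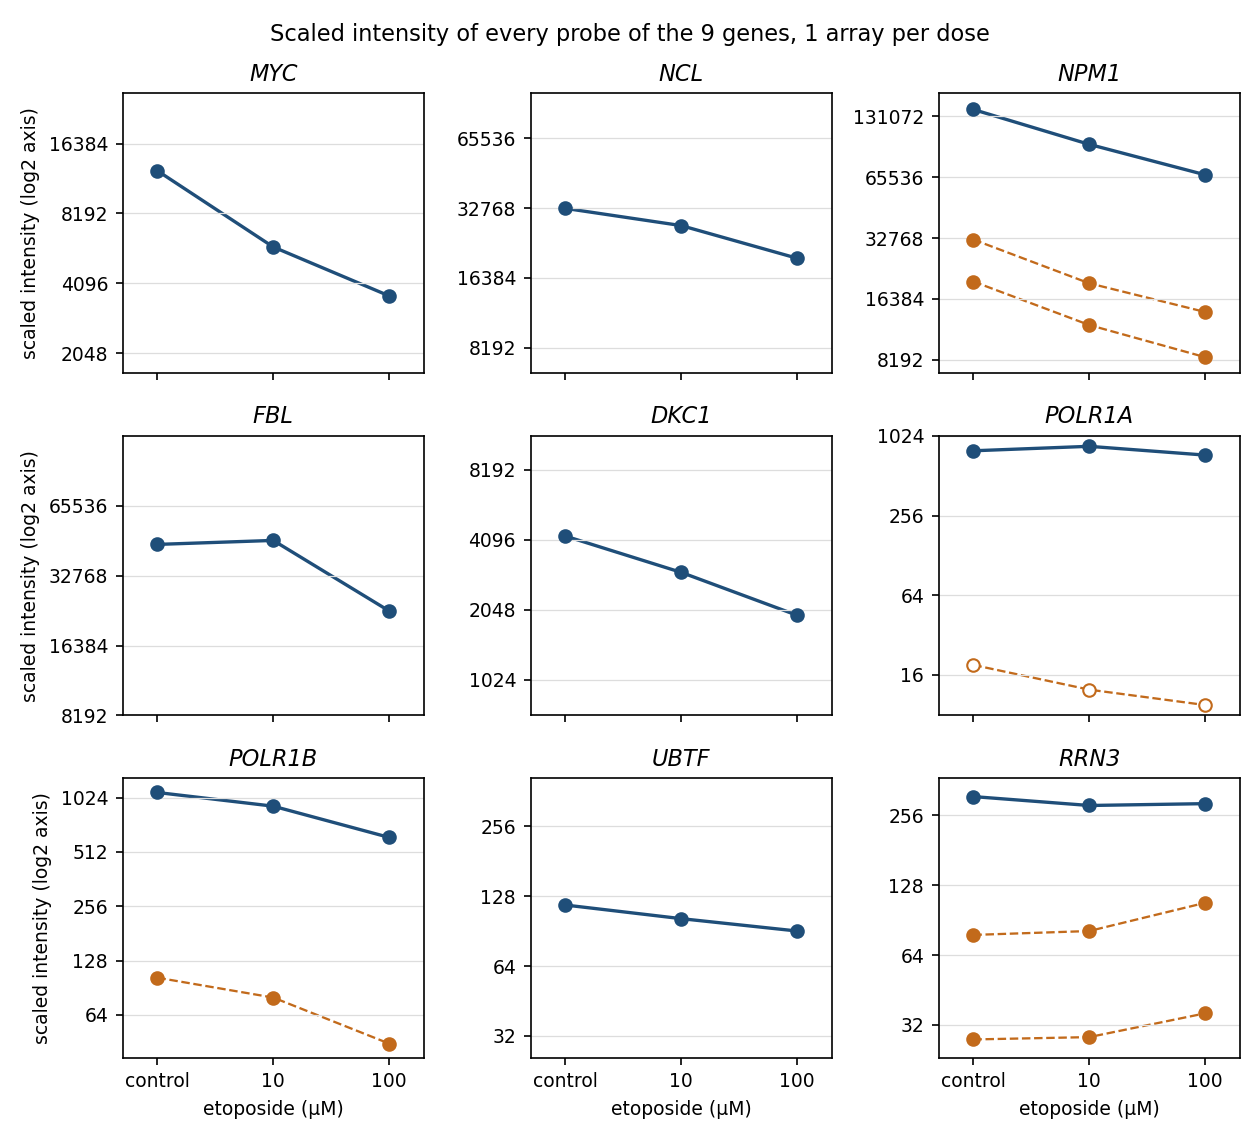
Scaled intensity (vertical axes, log2 scale, a different range in each panel) of every probe of the 9 genes on the arrays of control cells and of cells treated with 10 or 100 μM etoposide (horizontal axes). Solid blue lines are the brightest probe of each gene, dashed orange lines the other probes, and open circles signals not well above background. The lines of MYC, NCL, NPM1, DKC1, POLR1B and UBTF fall at each step, whereas the other 2 RRN3 probes are highest at 100 μM.

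Set side by side, 6 of the 9 genes (66.7%) had their highest signal in control cells, an intermediate signal at the low dose and their lowest signal at the high dose. Of all 15178 genes well above background on the 3 arrays, 2987 (19.7%) had that order. The 3 exceptions were FBL and POLR1A, whose 10 μM signals were slightly above control, and RRN3, whose 2 treated arrays differed by less than the spot-to-spot SD.

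With 10 μM set against control, 1 of the 9 genes, MYC, was lower by more than 2-fold, and 1.61% of all 16664 genes were. The same 1 gene was lower by more than 1.5-fold, compared with 6.5% of all genes. None of the 9 was higher by more than 2-fold or 1.5-fold, compared with 3.38% and 9.06% of all genes. NPM1 was just inside the 1.5-fold line at 1.49-fold lower by its brightest probe and past it by its other 2 probes.

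With 100 μM set against control, 3 of the 9 genes, MYC, DKC1 and NPM1, were lower by more than 2-fold, and 3.71% of all genes were. With NCL, FBL and POLR1B, 6 of the 9 were lower by more than 1.5-fold, compared with 9.82% of all genes. None was higher by more than 2-fold or 1.5-fold, compared with 6.84% and 18.6% of all genes. FBL, at 1.93-fold lower, lay just short of 2-fold.

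With 10 μM set against 100 μM, 8 of the 9 genes had the higher signal at 10 μM, with a median log2 ratio of 0.50. Of all 16688 genes 60.1% had the lower signal at 10 μM, with a median of -0.11. FBL was the 1 gene higher by more than 2-fold, compared with 3.66% of all genes, and MYC, FBL and DKC1 were the 3 higher by more than 1.5-fold, compared with 7.52% of all genes. None was lower by more than 2-fold or 1.5-fold, compared with 3.97% and 14.4% of all genes. This comparison shares its arrays with the others, so its counts are not independent of them.

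**Figure D3:**
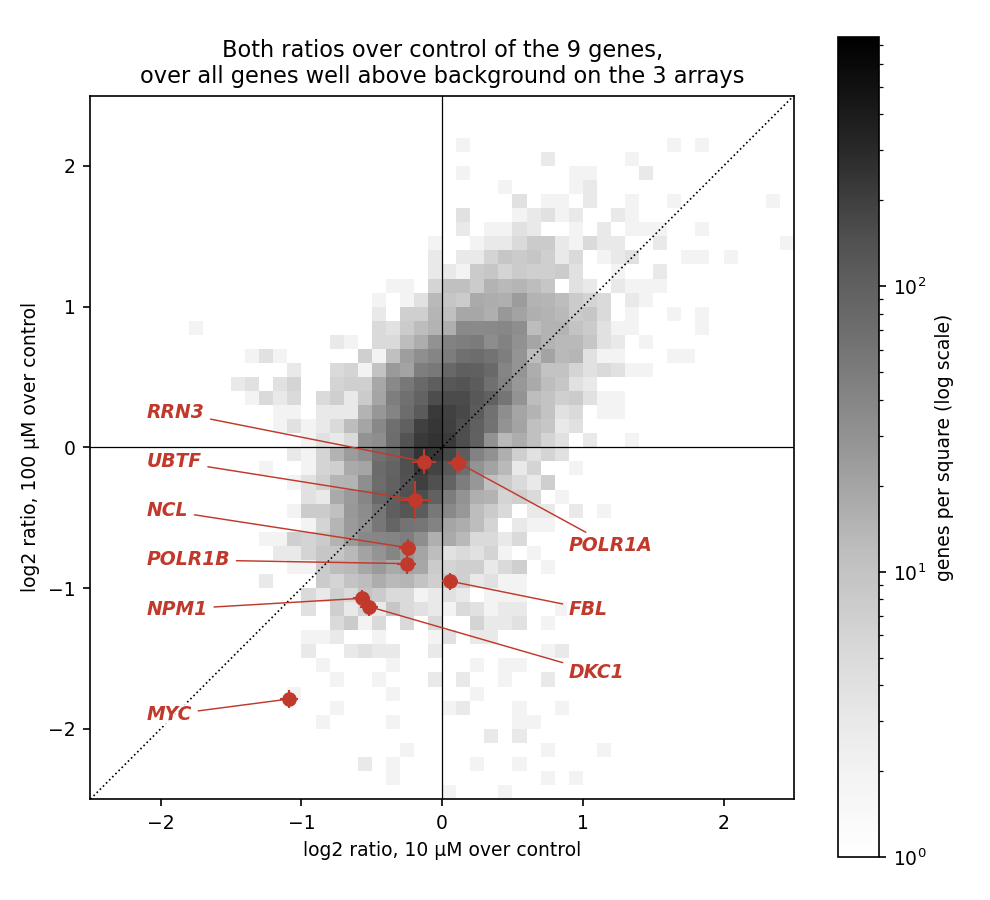
The log2 ratio over control at 10 μM (horizontal axis) against that at 100 μM (vertical axis) for the 9 genes (red points, error bars give the SD between spots) over all 15178 genes well above background on the 3 arrays (grey squares, darker for more genes, log scale). The dotted line marks equal ratios, and 114 genes lie outside the axes. All 9 points lie below 0 on the vertical axis, MYC lowest at -1.09 and -1.79, and FBL lies at 0.06 and -0.95.

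These ratios depend on how the arrays are scaled to each other. Without scaling, all ratios shift by 0.06 with 10 μM and by -0.25 with 100 μM, and the median of all genes at the high dose becomes -0.15. With scaling on 7 spike-in control probes, whose own signals had a mean log2 ratio of 0.01 with 10 μM and -0.08 with 100 μM, the shifts were 0.05 and -0.17. The counts of all genes past 2-fold at the high dose went from 622 lower and 1148 higher to 1076 lower and 637 higher without scaling, to 919 and 753 with spike-in scaling and to 789 and 783 with quantile normalization. Between the doses they went from 663 lower and 610 higher to 288 lower and 1002 higher without scaling, to 342 and 842 with spike-in scaling and to 389 and 735 with quantile normalization. The 9 genes stayed lower at the high dose under each scaling, and without scaling 5 of them were lower by more than 2-fold. Of all genes, 10502 of 16940 were lower there without scaling, 9503 of 16896 with spike-in scaling and 8029 of 16971 with quantile normalization.

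Genes listed as other parts of the RNA polymerase I apparatus were lower at the high dose in 14 of 17 cases, with a median log2 ratio of -0.59, and in 13 of 17 cases at the low dose, with a median of -0.14. The shares of all genes lower were 42.4% and 54.6%. At the high dose 15 of the 17 were lower without scaling or with spike-in scaling. Of all genes, 10502 of 16940 and 9503 of 16896 were. None of the 17 passed 2-fold at the low dose. Compared with 3.71% of all genes, 4 of the 17 were lower by more than 2-fold at the high dose. Without scaling 6 of the 17 were, and 1076 of 16940 of all genes. The 4 were POLR1E and CD3EAP, which encode subunits of the polymerase, TCOF1, which encodes the ribosomal DNA transcription factor treacle, and TAF1A, which encodes a subunit of the promoter factor SL1. POLR1E had signals of 327 in control cells, 271 at 10 μM and 106 at 100 μM, so that its high-dose log2 ratio was -1.63 and its low-dose ratio -0.27. TCOF1 had signals of 2227, 2684 and 1074, with log2 ratios of 0.27 and -1.05. POLR1E and TCOF1 were also the 2 genes of the list more than 2-fold above their 100 μM signal at 10 μM, with log2 ratios of 1.36 and 1.32, and TCOF1 shared with FBL a low-dose signal at or above that of control cells. CD3EAP (-0.62 and -1.28) and TAF1A (-0.51 and -1.01) were lower at both doses. At the other end at the high dose, BAZ2A, part of a complex that silences ribosomal DNA, had a log2 ratio of 0.07, and TAF1C, another SL1 subunit, 0.39. PTRF, known both as a release factor and as a coat protein of caveolae, had 0.63. At the low dose BAZ2A was lower than control, at -0.54, while TAF1C was at 0.06 and PTRF at -0.11.

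All 14 other core and assembly proteins of the small nucleolar RNPs were lower at the high dose, with a median log2 ratio of -0.60. With 10 μM, 13 of the 14 were lower, with a median of -0.26, and 10 were without scaling or with spike-in scaling. Of all genes, 42.4% were lower at the high dose and 54.6% at the low dose. With 10 μM, 7822 of 16616 were lower without scaling and 7964 of 16617 with spike-in scaling. With 100 μM, 10502 of 16940 and 9503 of 16896 were, as were all 14 genes of the list. NOP58, a core protein of the box C/D particle beside fibrillarin, had signals of 15453, 10848 and 7676 and log2 ratios of -0.51 and -1.01. Its partner NOP56 had log2 ratios of -0.25 and -0.89. RRP9, which belongs to the U3 particle, had ratios of -0.52 and -1.09. NUFIP1, an assembly factor, was not well above background at the high dose and was at least 2.57-fold lower there. Neither NOP10, a core protein of the H/ACA particle beside dyskerin, nor NHP2L1, the protein that binds the C/D motif, came near these values at the high dose, with log2 ratios of -0.06 and -0.12. The 1 gene of the list past 2-fold at the low dose was NAF1, an H/ACA assembly factor of low signal (54.6, 25.2 and 34.5). Its log2 ratio was -1.11 ± 0.31 there, past 2-fold by less than the spot-to-spot SD, and -0.66 ± 0.27 at the high dose.

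Of 84 processing and assembly factors of the ribosomal subunits, 75 were lower at the high dose, with a median log2 ratio of -0.58, and 64 at the low dose, with a median of -0.19, compared with 42.4% and 54.6% of all genes. Without scaling 82 of the 84 and 10502 of 16940 of all genes were lower at the high dose. With spike-in scaling 80 of the 84 and 9503 of 16896 were. At the high dose 42 were lower by more than 1.5-fold and 10 by more than 2-fold, compared with 9.82% and 3.71% of all genes, and none was higher by more than 1.5-fold, compared with 18.6%. The count of 10 became 27 without scaling, 20 with spike-in scaling and 11 with quantile normalization. Of all genes, 1076 of 16940, 919 of 16896 and 789 of 16971 were lower by more than 2-fold under these settings. At the low dose 6 of the 84 were lower by more than 1.5-fold, which is near the 6.5% of all genes, and none by more than 2-fold, compared with 1.61%. The 10 were DDX10 (-1.29), UTP20 (-1.25), RPF2 (-1.21), LYAR (-1.18), RRS1 (-1.17), DDX21 (-1.14), NOB1 (-1.13), DIMT1L (-1.12), NOC3L (-1.09) and BOP1 (-1.06), given with the high-dose log2 ratio over control. They include RNA helicases (DDX10, DDX21), an RNA methylase (DIMT1L), the endonuclease that makes the final cut of the small subunit RNA (NOB1) and assembly factors of the large subunit (RPF2, RRS1, NOC3L and BOP1). DDX21 went from 7320 in control cells to 6637 at 10 μM and 3319 at 100 μM, so most of its difference lay between the doses, as for FBL. PNO1, a small subunit factor, had its lower signal at the low dose, with log2 ratios of -0.93 and -0.77. UTP3 (0.37 and 0.57), BMS1 (0.18 and 0.36) and FTSJ3 (0.20 and 0.23) were higher than control at both doses. The order of control, low dose and high dose from highest to lowest was found in 55 of the 84 genes (65.5%), in 11 of 13 of the small nucleolar RNP genes measured on every array and in 10 of 17 of the RNA polymerase I genes. Of all 15178 genes well above background on the 3 arrays, 19.7% had it. In the lists described below, 16 of 21 MYC targets outside the nucleolus and 4 of 11 MYC network genes had it. So did 3 of 10 genes of the MDM2 arm and 0 of 3 genes lowered by MYC.

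By the distance between pairs of log2 ratios over control, measured on the 3 arrays, 10 of 15177 other genes lay within 0.25 of MYC. Of the listed genes the nearest were DDX10 at 0.64, UTP20 at 0.66 and SHMT2, the mitochondrial serine hydroxymethyltransferase, at 0.68, and of the other 8 genes they were DKC1 at 0.87 and NPM1 at 0.88. Hence no gene of these lists had ratios as low as those of MYC at both doses.

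The partners and rivals of MYC were less uniform. Of 12 other genes of the MYC, MAX and MXD network, 11 could be measured, with median log2 ratios of -0.21 with 10 μM and -0.11 with 100 μM. In each case 7 of the 11 were lower, compared with 54.6% and 42.4% of all genes. At the high dose 9 were lower without scaling or with spike-in scaling. Of all genes, 10502 of 16940 were lower there without scaling and 9503 of 16896 with spike-in scaling. MYCL1, a paralog of MYC, had signals of 127, 81.7 and 53.9 and was the 1 gene of the network lower by more than 2-fold at the high dose, with log2 ratios of -0.64 and -1.24. MXD4, which encodes a repressor that competes with MYC for MAX, had a ratio of 0.01 with 10 μM and 0.70 with 100 μM. MLXIPL, the glucose-responsive factor of the network, had ratios of -0.21 and 0.62.

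Textbook targets of MYC outside the nucleolus were lower at the high dose in 19 of 21 cases, with a median log2 ratio of -0.55, and at the low dose in 16 of 21, with a median of -0.22. Of all genes 42.4% and 54.6% were lower. At the high dose 20 of the 21 were lower without scaling or with spike-in scaling. There 10502 of 16940 and 9503 of 16896 of all genes were lower. The 16 became 14 without scaling or with spike-in scaling, where 7822 of 16616 and 7964 of 16617 of all genes were lower. All 21 had more signal at 10 μM than at 100 μM, and with quantile normalization 20 did. Of all genes 60.1% had less signal at 10 μM than at 100 μM. Without scaling 5181 of 16784 did, and with quantile normalization 9187 of 16728. SHMT2 had signals of 18161, 11892 and 7332 and log2 ratios of -0.61 and -1.31. ODC1, the first enzyme of polyamine synthesis, had signals of 29074, 16789 and 14634 and ratios of -0.79 and -0.99, so most of its difference was present at the low dose. In TERT, the telomerase reverse transcriptase, and PTMA, prothymosin alpha, it was not: the ratios of TERT were 0.06 and -1.80, and those of PTMA were -0.01 and -0.96. CCND2, a cyclin, was higher than control at both doses (0.48 and 0.40).

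Of 6 genes known to be lowered by MYC, 4 could be measured at the high dose and 3 at the low dose. Those were higher than in control cells, while 42.4% of all genes were lower at the high dose and 54.6% at the low dose. GADD45G, measured over control only at the high dose, was dim, with signals of 17.2, 12.6 and 31.9. Its control signal was not well above background, so its log2 ratio of 0.71 is a lower bound. CDKN1A, the p53 target that encodes the inhibitor p21, had signals of 170, 1349 and 1201, with log2 ratios of 2.99 and 2.82. GADD45A had ratios of 0.78 and 0.46, and NDRG1 had 0.58 and 0.52. GADD45A, too, is a known target of p53.

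Nucleolar disturbance is linked to p53 through the ribosomal proteins RPL5 and RPL11, which bind MDM2, the ligase that removes p53. MDM2, itself a p53 target, had signals of 616 in control cells, 4334 at 10 μM and 1964 at 100 μM, with log2 ratios of 2.81 and 1.67. RPL5 had log2 ratios of -0.23 and -0.35, and RPL11 had -0.14 and -0.23. Over the 10 genes of this list the median log2 ratio was 0.01 at both doses, and at the high dose it was -0.24 without scaling.

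**Figure D4:**
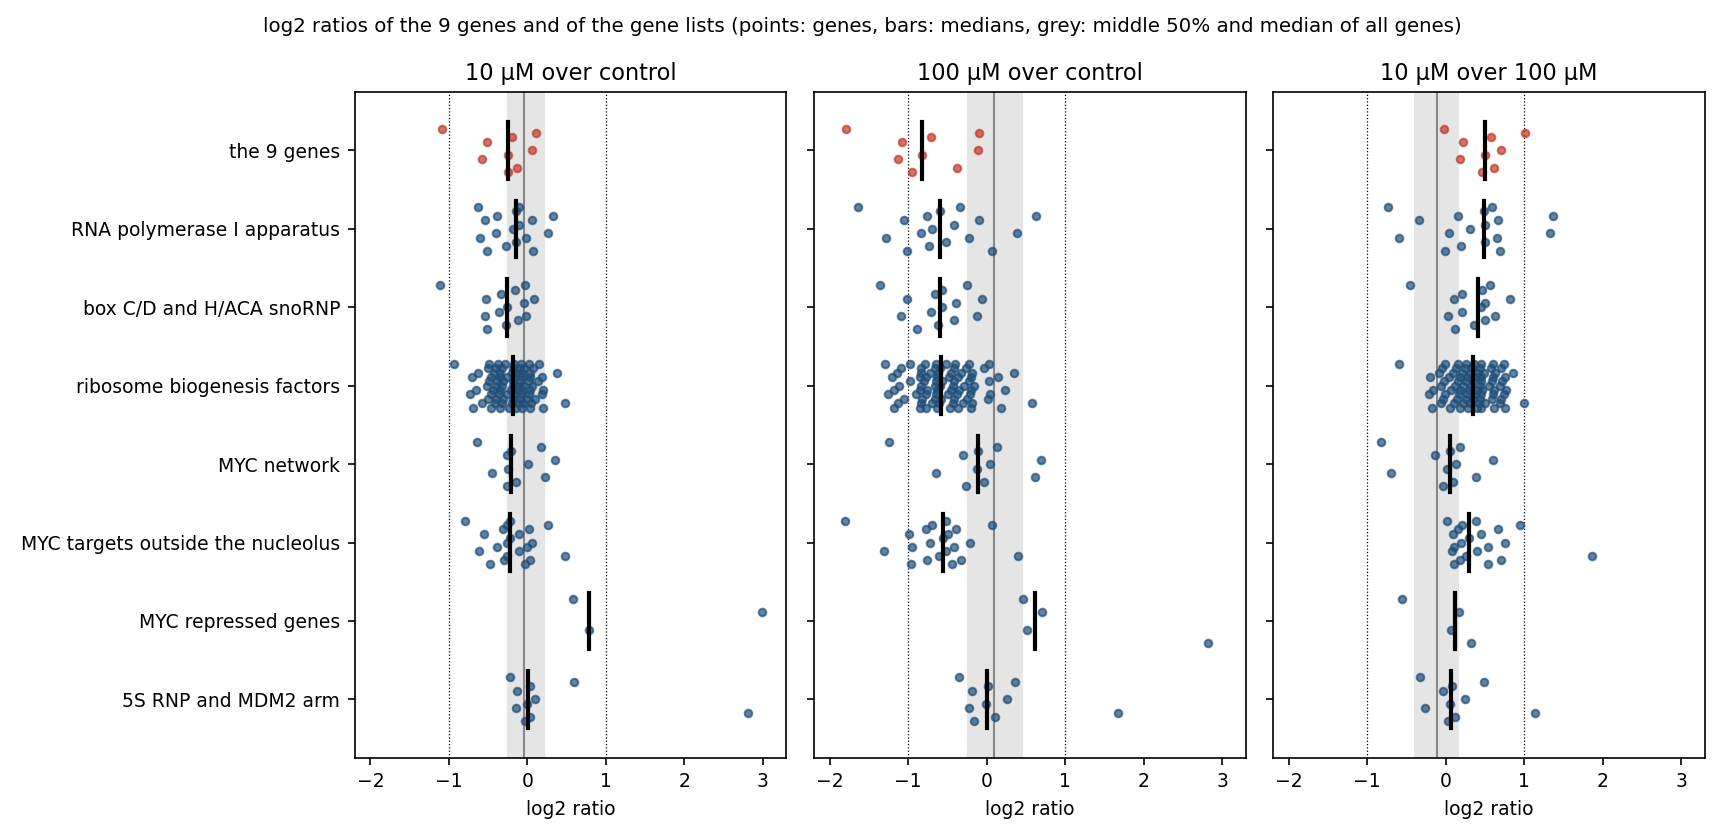
The log2 ratios (horizontal axes) of the 9 genes (red) and of the genes of each list (blue) in the 3 comparisons. Points are genes, black bars list medians, the grey band the middle 50% and the grey line the median of all genes, and dotted lines mark 2-fold. At 100 μM over control the medians of the 9 genes (-0.83), the RNA polymerase I apparatus (-0.59), the small nucleolar RNPs (-0.60) and the ribosome biogenesis factors (-0.58) lie left of that of all genes (0.10).

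The promoters of the nucleolar genes were searched for CACGTG, the E-box that MYC and MAX bind best, which reads the same on both strands. RefSeq windows of 300 bases on GRCh38.p14, from 250 before to 50 after a transcript start, were matched for 8 of the 9 genes by symbol, which gave 12 windows. The motif was in 1 of the 12, a window of FBL, and in 2548 of all 35116 windows (7.26%). In the FBL window, on chromosome 19 from 39846330 to 39846629 (minus strand), the motif begins at base 257. It is shown as the 1 window of these genes that held the motif, and whether FBL depends on MYC in these cells was not tested. The 30 bases around it, at chr19:39846356-39846385 on the minus strand, are printed 5′ to 3′ with the motif in capitals.
FBL, around the start: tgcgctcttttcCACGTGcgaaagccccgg
Such a match describes the letters of the window and is not evidence of binding.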

How the data were processed

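RNA of HepG2 cells was amplified with a 1-color low-input linear kit and hybridized to 3 Agilent arrays, per the labels. The authors deposited intensity values of each spot from Agilent Feature Extraction (version 10.7.3.1), background-subtracted within the array, and a series table equal to them for all 44495 spots. No scaling, normalization or dim-probe filter is named in the sources used here. The files place probes on hg18.

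Here, log2 intensities were averaged over the spots of a probe without outlier spots and set to the 75th percentile over probes (each probe once). A gene was its brightest probe on average. A ratio needed the brighter signal well above background, and a dimmer signal below the faintest probe of its array that passed that call (19.5 for control, 22.7 for 10 μM and 21.6 for 100 μM, unscaled) was raised to it, which gives a lower bound. The spot-to-spot SD came from the 50 repeated probes nearest in signal, out of 999 spotted 10 times. The number of arrays limits the precision, with 1 per condition.

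The 9 genes, the gene lists and these rules were chosen with earlier results of these data known. Lists were matched by current or older symbol. Named genes are the 9 with every probe, those past 2-fold, those nearest MYC, CDKN1A and MDM2, and some of the 3 highest and 3 lowest of a list. Not every such extreme is named. Left out at the low dose were, among others, SENP3 (log2 ratio 0.49), TTF1 (0.33), MXD3 (0.35), BBC3 (0.60) and TWISTNB (-0.60). NOP53 (GLTSCR2) stands in the lists of ribosome biogenesis factors and of the MDM2 arm. The steps were tested on simulated data. A planned search of the protein sequences was not made here. Another marker is not reported here. Alternatives were other scalings, normexp with an offset of 50, outlier, dim-probe and several-probe rules, the series table, and 1.5-fold and 3-fold thresholds. Python 3.11.15, numpy 2.4.6, pandas 2.3.3, matplotlib 3.10.9, R 4.3.3 and limma 3.58.1 were used.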

Additional observations from a re-analysis of the deposited data

How the results depend on the processing

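Over the 12 alternatives in scaling, background, filter and probe choice, 93 of 324 log2 ratios of the 9 genes moved by more than their spot-to-spot SD. The 324 include values that could not move. These are the values from the series table, those without the dim-probe filter and the probe averages of genes with 1 probe. MYC ranged from -1.11 to -1.03 at the low dose and from -2.08 to -1.72 at the high dose. RRN3 changed sign at the low dose (-0.15 to 0.03) and at the high dose (-0.39 to 0.37), and between the doses RRN3 (-0.34 to 0.28) and UBTF (-0.04 to 0.49) did. The high-dose median of the 9 genes, -0.83, was -1.08 without scaling, -1.12 with median scaling, -0.998 with spike-in scaling, -0.75 with normexp, and -0.95 with either the mean or the median over the probes of a gene. The genes lower by more than 2-fold there, 3, became 5 without scaling and 6 with median scaling. They were 4 with spike-in scaling, with normexp, and with either the mean or the median over probes. By threshold they were 6 at 1.5-fold and 1 at 3-fold. Of all genes, 3.71% were lower by more than 2-fold and 9.82% by more than 1.5-fold. Past 2-fold were 1076 of 16940 without scaling and 919 of 16896 with spike-in scaling. Shares of all genes were not computed for median scaling, normexp, the probe rules or 3-fold. The median between the doses, 0.50, was 0.81 without scaling, 0.77 with median scaling, 0.73 with spike-in scaling and 0.43 with the percentile over all spots. The count past 2-fold between the doses, 1, was 2 without scaling, 0 with quantile normalization, the percentile over all spots or that over probes well above background, and by threshold 3 at 1.5-fold and 0 at 3-fold. At the low dose the count of 1 was 0 at 3-fold. No paired analysis was possible because the design gives a dose 1 array. List medians under other scalings are an alternative that was chosen after seeing the data. Dim probes limit UBTF, 2 of the RRN3 probes and the dimmer POLR1B probe, whose spot-to-spot SD is 0.117 or more on the log2 ratio.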
